A study of Mus musculus with 2 samples.

Results

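The promoters described here are rich in CpG dinucleotides, like those known as CpG islands, and carried no DNase I peak in the urinary bladder of young mice. A promoter was CpG-rich where the 1001 bases around the most upstream annotated transcription start site (TSS) of an autosomal protein-coding gene had a GC content of 55% or more and a ratio of observed to expected CpG dinucleotides (CpG o/e) of 0.65 or more. It was without a peak where neither replicate had a peak sharing a base with the 1 kb on either side of any annotated TSS of the gene. Of 20807 autosomal protein-coding promoters, 7469 were CpG-rich, and 108 of these (1.45%) had no peak. Of the 13338 other promoters, 42.3% had none. These 2 shares are what the selection used and are given as a description. Start sites of 3 pairs of these genes lay within 1 kb of each other, so the 108 promoters lay at 105 separate places.

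The tissue was urinary bladder of male B6CASTF1/J mice aged 14 days, first-generation hybrids of the inbred strains C57BL/6J and CAST/EiJ. DNase-seq maps open chromatin from the ends left where the nuclease DNase I cuts unprotected DNA. The series holds 1 group of 2 libraries, replicate 1 from what the labels call a male and replicate 2 from tissue pooled from 3 males, with no treatment, mutant or second time point. No conditions could therefore be compared, and nothing below is a test: genes are not replicates, and with 1 group and a selection by the readout itself, the values describe these libraries. Replicate 1 had 139821 peaks and replicate 2 had 82225, and the labels state no sequencing depth. In the check of the tissue label, 8 of 8 urothelial, 5 of 5 smooth muscle and 4 of 4 stromal marker genes had a promoter peak in both replicates. Both endothelial markers (Pecam1, Cdh5) and both immune markers (Ptprc, Csf1r) lacked a promoter peak in at least 1 replicate, and 2 of 3 markers of neurons and glia had a peak in both.

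CpG islands are stretches of DNA that keep their CpG dinucleotides because they are largely free of DNA methylation in the germ line. Most promoters of housekeeping genes are of this kind, and they are usually open in every cell. In mammals the islands of developmental regulators are a well known exception, being bound by Polycomb complexes in cells that do not use them, and islands of some germ line genes are held silent in the body's other cells by E2F6, MGA, MAX and DNA methylation. Neither methylation, Polycomb marks nor RNA was measured here. In a whole tissue, fewer cells with an open promoter and a less open promoter in each cell cannot be told apart.

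Sequences are shown in 2 sets, to let the eye compare their CpG content and motifs. The first set shows the 3 promoters without a peak that have most CpG dinucleotides in the 1001 bases, and Neurog1, which was chosen after its values were seen because it holds bases at a low false discovery rate without a peak. Each runs 5′ to 3′ on the gene's strand from 250 bases before the most upstream TSS to 49 after it, in mm10 (GRCm38.p6), with CpG dinucleotides in capitals.
Cabp7 (chr11:4746729-4747028, minus strand): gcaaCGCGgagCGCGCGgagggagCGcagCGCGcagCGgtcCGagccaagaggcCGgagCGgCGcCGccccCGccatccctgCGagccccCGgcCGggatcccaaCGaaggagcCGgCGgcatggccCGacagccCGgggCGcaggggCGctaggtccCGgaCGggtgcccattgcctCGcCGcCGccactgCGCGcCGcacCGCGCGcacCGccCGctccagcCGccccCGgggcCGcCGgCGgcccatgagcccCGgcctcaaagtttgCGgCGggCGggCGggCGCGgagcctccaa
Ajap1 (chr4:153482762-153483061, minus strand): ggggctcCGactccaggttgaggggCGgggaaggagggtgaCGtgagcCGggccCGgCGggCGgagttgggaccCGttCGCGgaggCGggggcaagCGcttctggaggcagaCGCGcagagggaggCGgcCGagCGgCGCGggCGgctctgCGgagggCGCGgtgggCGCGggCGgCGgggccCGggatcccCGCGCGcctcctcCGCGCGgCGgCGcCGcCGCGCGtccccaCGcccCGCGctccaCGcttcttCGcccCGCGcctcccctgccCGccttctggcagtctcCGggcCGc
Ugt8a (chr3:125938570-125938869, minus strand): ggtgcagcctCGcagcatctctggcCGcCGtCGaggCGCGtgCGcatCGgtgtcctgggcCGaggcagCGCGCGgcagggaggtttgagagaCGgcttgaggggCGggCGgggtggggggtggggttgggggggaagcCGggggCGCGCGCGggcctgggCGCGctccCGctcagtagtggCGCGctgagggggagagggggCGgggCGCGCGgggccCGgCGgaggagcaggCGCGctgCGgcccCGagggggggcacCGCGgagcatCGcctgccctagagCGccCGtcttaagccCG
Neurog1 (chr13:56252114-56252413, minus strand): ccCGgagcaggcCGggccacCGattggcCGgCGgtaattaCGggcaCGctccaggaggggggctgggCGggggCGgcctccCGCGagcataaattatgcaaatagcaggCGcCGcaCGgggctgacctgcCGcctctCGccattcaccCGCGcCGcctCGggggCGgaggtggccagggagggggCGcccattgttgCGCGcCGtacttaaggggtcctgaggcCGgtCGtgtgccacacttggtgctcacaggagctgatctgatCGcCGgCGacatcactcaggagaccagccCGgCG
Within these 300 bases Cabp7 and Ajap1 each had 50 CpG dinucleotides, Ugt8a 41 and Neurog1 32. GC content ran from 70% in Neurog1 to 81.0% in Ajap1.

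The second set shows the 3 germ line promoters without a peak that held both motifs described further on, and, beside them, Prdm9, the meiotic gene with the strongest promoter peak among the germ line genes listed. They were chosen after the motif matches were known. Capitals mark CACGTG, the E-box that MAX and MGA bind, and TTCCCGC or its reverse complement GCGGGAA, the core that E2F6 binds.
Slc25a31 (chr3:40708605-40708904, plus strand): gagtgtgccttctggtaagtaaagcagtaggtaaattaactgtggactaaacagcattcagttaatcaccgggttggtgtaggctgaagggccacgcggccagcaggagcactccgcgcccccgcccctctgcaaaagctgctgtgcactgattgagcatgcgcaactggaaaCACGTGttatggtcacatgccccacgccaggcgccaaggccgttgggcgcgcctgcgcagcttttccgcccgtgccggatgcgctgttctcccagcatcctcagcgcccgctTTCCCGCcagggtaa
Sycp3 (chr10:88459319-88459618, plus strand): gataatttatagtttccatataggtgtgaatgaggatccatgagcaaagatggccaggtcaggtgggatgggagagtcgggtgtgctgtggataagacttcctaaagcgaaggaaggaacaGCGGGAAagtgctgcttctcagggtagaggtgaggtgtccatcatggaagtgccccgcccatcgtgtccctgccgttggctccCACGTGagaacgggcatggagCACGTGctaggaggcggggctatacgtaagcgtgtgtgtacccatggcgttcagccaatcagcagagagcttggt
Tex12 (chr9:50561276-50561575, minus strand): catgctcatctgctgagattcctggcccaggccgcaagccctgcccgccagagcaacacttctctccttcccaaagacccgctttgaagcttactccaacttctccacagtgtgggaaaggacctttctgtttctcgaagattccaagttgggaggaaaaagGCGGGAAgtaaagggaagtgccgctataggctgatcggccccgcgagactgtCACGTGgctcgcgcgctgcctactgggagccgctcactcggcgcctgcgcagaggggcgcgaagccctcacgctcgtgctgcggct
Prdm9 (chr17:15564305-15564604, minus strand): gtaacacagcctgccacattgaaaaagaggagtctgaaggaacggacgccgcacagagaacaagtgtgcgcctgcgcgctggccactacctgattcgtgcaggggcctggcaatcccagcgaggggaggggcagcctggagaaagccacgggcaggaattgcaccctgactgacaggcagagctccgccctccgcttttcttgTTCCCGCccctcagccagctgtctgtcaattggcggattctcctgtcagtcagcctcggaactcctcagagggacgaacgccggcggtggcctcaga
Sycp3 had 2 E-box matches, the more upstream of them 46 bases before the TSS, and its E2F6 core started 129 bases before it. In Tex12 the E-box started 36 and the E2F6 core 88 bases before the TSS. In Slc25a31 the E-box started 77 bases before the TSS and the E2F6 core lay 35 bases after it. Prdm9 had an E2F6 core 47 bases before the TSS and no E-box in this window.

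In GC content and number of CpG dinucleotides the promoters without a peak were close to the CpG-rich promoters with one. Both groups had passed the same limits of GC content and CpG o/e, so part of this likeness follows from the selection. Their median CpG o/e was 0.77 against 0.81 for the 7281 CpG-rich promoters with a peak in both replicates, their median GC content 63.6% against 62.9%, and their median number of CpG dinucleotides 77 against 79. The 10 richest were Cabp7 (153 CpG dinucleotides), Ajap1 (139), Ugt8a (119), Hmx1 (118), Nkx1-1 (118), Hcn2 (114), Skor1 (113), Tcfl5 (110), 4933428G20Rik (108) and Gsg1l (107), the last tied with Ppp2r2c. Each of these lay above the upper quartile of the promoters with a peak, 96. At the other end Sycp3 had 46. Mean CpG density rose to 11.7 per 100 bp in the first 100 bp after the TSS, against 11.5 in promoters with a peak. The flanks differed more than the centre: from 1 to 2 kb downstream the density was 2.46 per 100 bp against 1.74, and from 1 to 5 kb upstream 1.49 against 1.10.

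**Figure D1:**
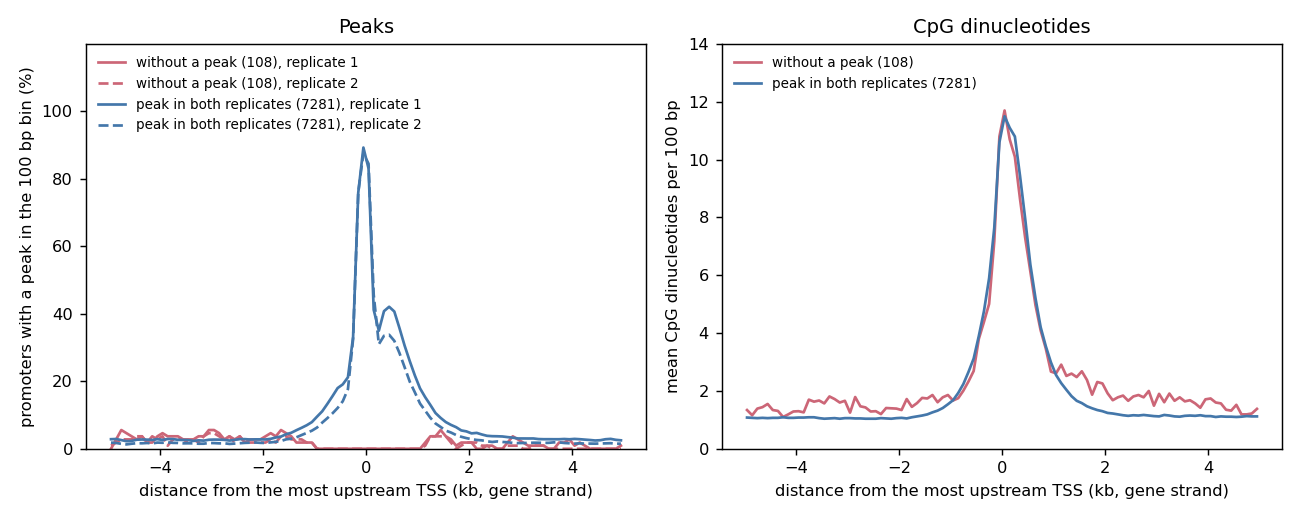
Share of promoters with a peak in each 100 bp bin (left, solid line replicate 1, dashed line replicate 2) and mean number of CpG dinucleotides per 100 bp (right), by distance in kb from the most upstream TSS on the gene's strand, for the 108 CpG-rich promoters without a peak and the 7281 with a peak in both replicates. The empty 1 kb on either side follows from the selection. The CpG curves, at 11.7 and 11.5 per 100 bp just after the TSS, lie close together there. Both groups had passed the same sequence limits around the TSS.

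The share without a peak was 2.21% at a CpG o/e of 0.65 to 0.75 and 1.37%, 1.22% and 0.33% in the next 3 bins, the last of which starts at 0.95. It had no such order with GC content, where the 4 bins gave 1.59%, 1.17%, 1.65% and 1.48%. It also differed with the number of annotated TSSs. Genes with 1 TSS lacked a peak in 47 of 875 cases (5.37%), those with 2 in 2.51%, with 3 in 1.71%, with 4 or 5 in 0.571% and with 6 or more in 0.401%. The median was 2 TSSs in the genes without a peak and 5 in those with one. A gene with more TSSs also has more windows in which a peak counts, and with the most upstream TSS alone 132 promoters (1.77%) had no peak. Among promoters with under 50% of their sequence found elsewhere in the genome, genes with 1 TSS still lacked a peak in 4.5% of cases, and genes with more in 0.762%. The genes were also shorter, with a median of 14354 bp against 29296 bp. A start of a RefSeq mRNA lay within 100 bp of the TSS in 79.6% of them, against 87.0% of the promoters with a peak.

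**Figure D2:**
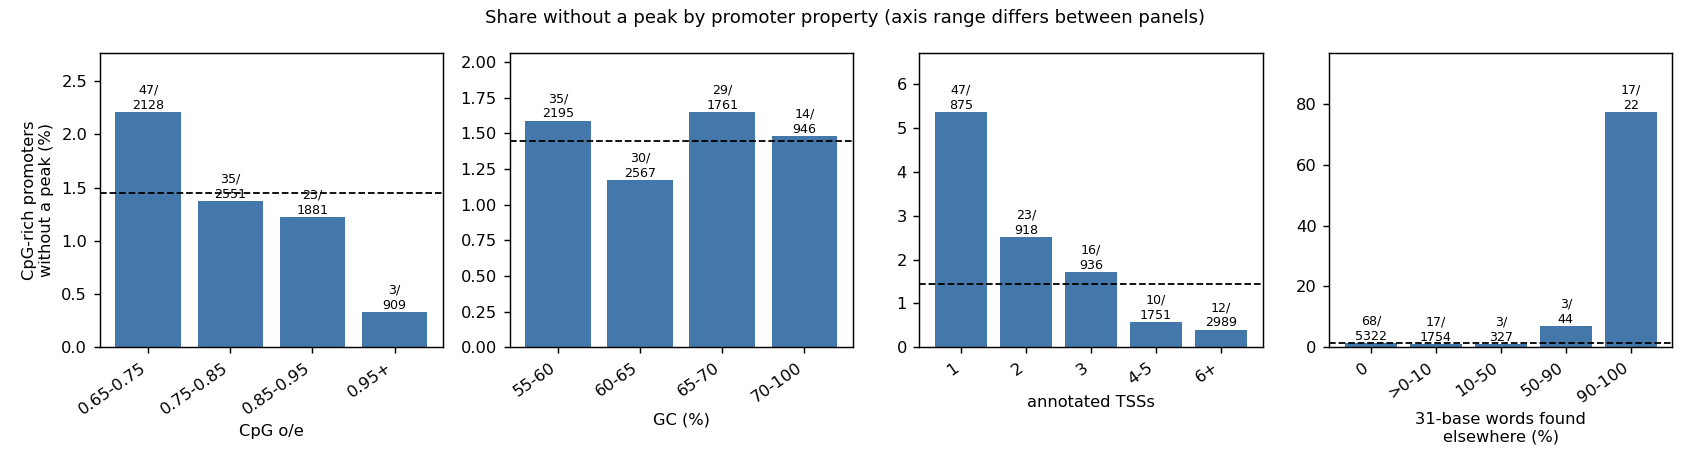
Share of CpG-rich promoters without a peak in bins of CpG o/e, GC content, number of annotated TSSs and share of 31-base words found elsewhere in the assembly, with the counts over each bar and the share over all CpG-rich promoters (1.45%) as a dashed line. The bins of the last panel rise to 77.3% where 90% or more of the words were copied, so the vertical axes differ.

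Counted over 10 and 50 kb, the surroundings held fewer peaks, though they were rarely empty. The nearest peak to any TSS of the gene lay at a median of 4270 bp in replicate 1 (1006 to 253505) and 6916 bp in replicate 2 (1033 to 362139). A peak of either replicate came within 2 kb of 30 promoters, within 5 kb of 62, within 10 kb of 76 and within 50 kb of 101. In 60 of the 108 both replicates gave the nearest peak at the same distance within 100 bp, in 36 that of replicate 2 was farther away, and in 12 it was closer. The peak-free block around the TSS had a median length of 24120 bp. Within 10 kb of the TSS the median number of peaks was 1 in each replicate, against 4 and 3 around the promoters with a peak, whose own peak is among them. Within 50 kb it was 6 in replicate 1 and 5 in replicate 2, against 11 and 7. Both counts include the 1 kb on either side that the selection emptied. From 2 to 5 kb upstream, most 100 bp bins held a peak at a larger share of these promoters than of those with a peak. From 2 to 5 kb downstream, most bins held one at a smaller share. Both differences were seen in each replicate, but they rest on few promoters. In these stretches no bin held a peak at more than 5.56% of the 108 in replicate 1 or 4.63% in replicate 2. A single promoter is 0.926%, and 1 peak can fill several neighbouring bins. Some upstream bins differed by less than 1 promoter, such as 2.78% against 2.69% in replicate 1. The gene itself held a peak somewhere in 51 cases in replicate 1 and 36 in replicate 2. These counts cannot be read as many or few. The genes were shorter than those with a promoter peak (medians of 14354 and 29296 bp), and the selection emptied 1 kb around each TSS. The nearest peaks had median signals of 0.935 and 0.975, against 0.687 and 0.887 over all peaks, where signal is the deposited height of a peak in the authors' units.

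**Figure D3:**
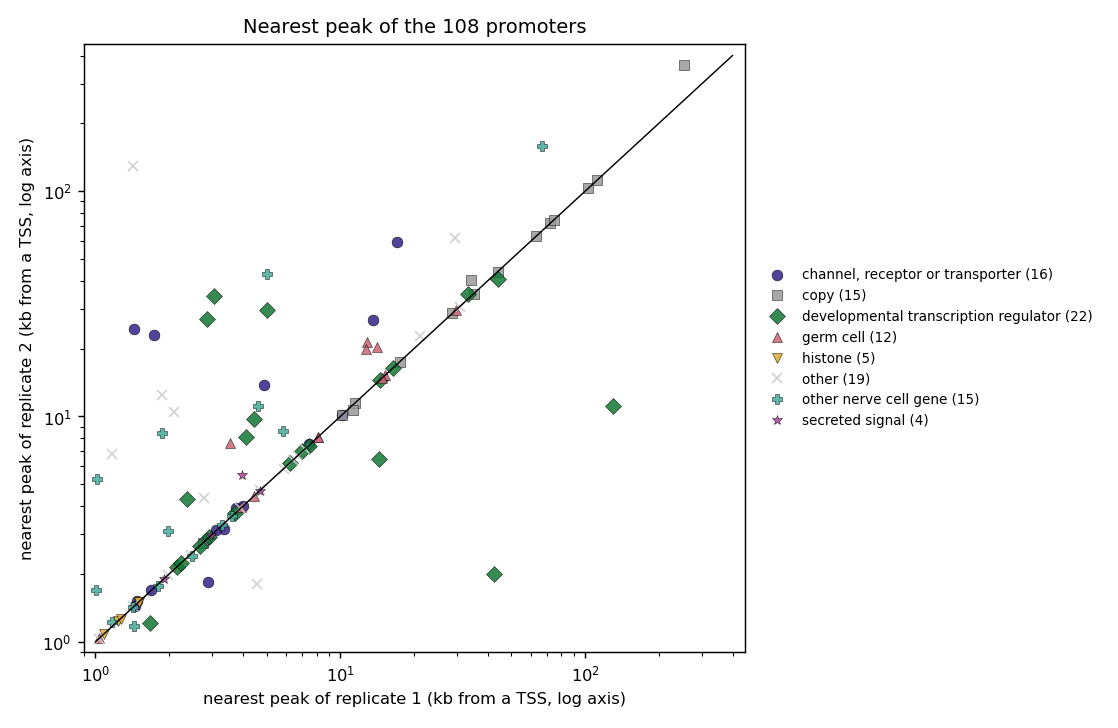
Distance in kb from a TSS of each of the 108 genes to the nearest peak of replicate 1 (horizontal, log axis) and replicate 2 (vertical, log axis), with symbols for 8 groups of genes and their numbers in the key. Most points lie on the line of equal distance, copied genes reach farthest out (253505 bp and 362139 bp for Gm3488), and more points lie clearly above the line (36) than below it (12).

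Stretches at a low false discovery rate were rare at these promoters. The deposited track of false discovery rates (FDR) lists stretches at 0.05 or lower, and such a stretch lay within 500 bp of the TSS in 2 of 108 promoters in each replicate, against 99.6% and 99.2% of the promoters with a peak. These were Sfrp5 with 8 bases and Gm5868 with 46 bases in replicate 1, and Neurog1 with 30 and Gjd2 with 19 bases in replicate 2. No promoter had such bases in both replicates. Within 1 kb of any TSS, 9 of 108 had a stretch in either replicate, and Vstm2l was the gene that had it in both. No footprint, a short protected stretch inside a cut region, lay within 500 bp of any of the 108, whereas 99.1% of the promoters with a peak had at least 1. Since peaks rest on the same cuts, these values are not independent of the selection. Cutting too weak to reach an FDR of 0.05 is not listed in the track and was not measured.

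The genes fell into a few recognisable kinds. They were sorted by textbook knowledge after the members were known: 22 encode regulators of transcription in development, 16 channels, receptors and transporters, 15 other proteins known from nerve cells, 12 germ cell proteins, 5 histones, 4 secreted signals and 15 other genes whose promoter is a copy, which leaves 19 of other roles. Against gene lists, written with earlier results of these data in view, 35 of the 277 CpG-rich genes in the 17 lists of tissues and families named by symbol had no peak (12.6%), against the 1.45% over all CpG-rich promoters. By replicate 2 alone, or with the stricter peak list of each library, more promoters had no peak, 2.33% and 3.03% of all CpG-rich ones, and list counts that moved over 1.5 times in this way are given with the list. The lists below are given by their counts and by the median signal of their genes with a peak in both replicates, beside 6.67 in replicate 1 and 5.74 in replicate 2 over all CpG-rich promoters with such a peak.

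**Figure D4:**
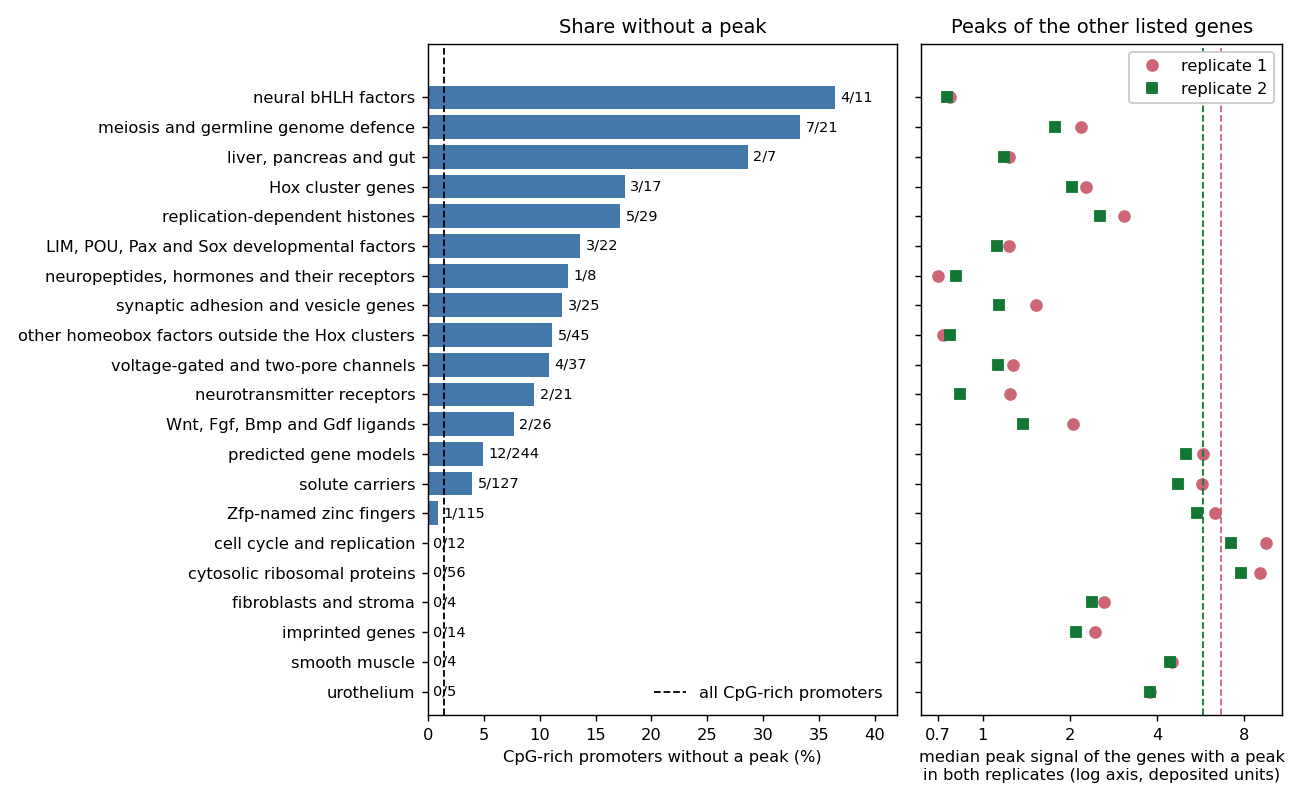
Left, share of the CpG-rich promoters of each gene list without a peak, with counts and the share over all CpG-rich promoters (dashed, 1.45%), for lists with at least 4 CpG-rich genes. Right, median signal of the list's genes with a peak in both replicates on a log axis, with the medians over all such CpG-rich promoters (dashed, 6.67 and 5.74): the 12 lists with the largest shares without a peak have medians from 0.698 to 3.07 in replicate 1.

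Among the regulators of development the neural bHLH factors had the largest share without a peak, 4 of 11 (36.4%). Neurog1, a determination factor of sensory neurons, had its nearest peak 14409 bp away in replicate 1 and 6495 bp in replicate 2. For Ptf1a, a factor of pancreas and inhibitory neurons, the values were 16403 and 16410 bp. Olig2, which specifies motor neurons and oligodendrocytes, had 44104 and 40683 bp, and Bhlhe23, a factor of retinal and brain neurons, 2681 and 2661 bp. In all 4 the nearest peak was more than 2 kb away, and for Ptf1a and Bhlhe23 both replicates gave nearly the same distance. The 7 listed bHLH genes with a peak in both replicates had weak ones, with medians of 0.771 and 0.751. The strongest, Ascl5, had 2.31 and 1.35, and the next, Sim1, 1.93 and 0.727.

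Homeobox genes outside the Hox clusters lacked a peak in 5 of 45 cases (11.1%). Hmx1, a factor of eye, ear and cranial ganglia, had its nearest peak at 2842 bp in replicate 1 and 26988 bp in replicate 2. Irx4, a factor of the heart ventricle, differed in the same way, with 5007 and 29724 bp. Nkx1-1 had 2375 and 4325 bp, and Gsx2, which patterns the forebrain, 4111 and 8141 bp. Uncx, a factor of the somites, had 6994 bp in both. In Hmx1, Nkx1-1, Irx4 and Gsx2 the nearest peak of replicate 1 was weak, with signals from 0.396 to 0.453, and the nearest peak of replicate 2 lay farther away. The 33 genes of this list with a peak in both replicates had median signals of 0.729 and 0.767, and 7 more had a peak in 1 replicate alone. By replicate 2 alone the count was 11 of 45 (24.4%), and with the stricter lists 19 of 45 (42.2%).

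Of the LIM, POU, Pax and Sox factors 3 of 22 had no peak (13.6%). Pou3f2, a factor of neurons and melanocytes, had its nearest peak 130506 bp away in replicate 1 and 11162 bp in replicate 2. Sox1, a marker of neural progenitors, had 33215 and 34846 bp, and Lhx5, a forebrain and spinal cord factor, 7419 and 7399 bp. The 16 listed genes with a peak in both replicates again had weak ones, at medians of 1.23 and 1.12, with Sox8 the strongest at 3.13 and 3.07. Pax3 (0.489), Pou3f3 (1.80) and Pou4f2 (0.422) had a peak in replicate 1 alone, so that replicate 2 alone gave 6 of 22 (27.3%), and the stricter lists gave 8 (36.4%). Other regulators among the 108 were Cdx1, which patterns the gut, Foxl1, a factor of gut mesenchyme, Dmrta2, Prrxl1, Skor1, Skor2 and Ripply2, a repressor in somite formation. Ripply2 had a strong peak 6225 bp away in both replicates, with signals of 8.73 and 7.23, the first of which was the highest of any nearest peak in replicate 1. The list of liver, pancreas and gut factors lacked a peak at Cdx1 and Ptf1a, 2 of 7 genes (28.6%).

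Genes of the Hox clusters, regulators of position along the body, lacked a peak in 3 of 17 cases (17.6%), and the 3 were all in the HoxC cluster on chromosome 15. Hoxc8 had a strong peak 2907 bp from a TSS in both replicates, with signals of 6.57 and 4.84. For Hoxc9, its neighbour among CpG-rich genes, the nearest peak lay 4429 bp away in replicate 1 and 9739 bp in replicate 2. Hoxc12 had 14537 and 14557 bp. The 11 Hox promoters with a peak in both replicates had medians of 2.27 and 2.03, with Hoxa4 at 4.81 and 3.57. These medians were above those of the neural bHLH list, the other homeobox list and the list of LIM, POU, Pax and Sox factors. Hoxb7 and Hoxd13 had a peak in replicate 1 alone and Hoxc11 in replicate 2 alone, and by replicate 2 alone 5 of 17 (29.4%) had none.

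Germ cell genes formed another group. In the list of meiosis and germ line genome defence, 7 of 21 CpG-rich promoters had no peak (33.3%). Ddx4, the Vasa RNA helicase that marks germ cells, had its nearest peak at 8106 bp in replicate 1 and 8086 bp in replicate 2. Sycp1 and Sycp3, both structural proteins of the synaptonemal complex, had 29703 and 29683 bp and 8109 and 8141 bp. Mael, of the piRNA pathway, had 15294 and 15214 bp. In these 4 genes the replicates gave nearly the same distance. Slc25a31, the ADP/ATP carrier of the testis, had 14146 and 20440 bp, and Fkbp6, a co-chaperone of male germ cells, 3558 and 7641 bp. Mei1, needed for meiotic double-strand breaks, lay close to the limit at 1030 and 1044 bp. Further germ cell genes outside that list were Hsf5, Papolb, Tcfl5, Tex12 and Zfp541, with nearest peaks from 3916 to 14793 bp in replicate 1 and from 3976 to 21404 bp in replicate 2.

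The germ line list was uneven. Its 14 genes with a peak in both replicates had median signals of 2.18 and 1.78, and its strongest, Prdm9, which directs meiotic recombination, had 15.2 and 13.5, above the median of all CpG-rich promoters. Msh5, a meiotic crossover protein, had 9.05 and 7.35. A signal was that of the strongest peak within 1 kb of any TSS, so such a peak may lie at a neighbouring gene's start. Whether it did so for these genes was not examined. In the 12 germ cell promoters without a peak the E-box CACGTG was present in 7 (58.3%) and the E2F6 core TTCCCGC in 6 (50%), between 250 bases before and 49 after the TSS and on either strand. The shares were 28.6% and 21.4% in the 14 germ line genes with a peak, 11.3% and 10.8% in all 7281 promoters with a peak, and 7.82% and 5.82% in all autosomal protein-coding promoters. The sets of 12 and 14 are unlike. The 14 all come from the list, while the 12 include Hsf5, Papolb, Tcfl5, Tex12 and Zfp541 from outside it. Of these, Hsf5, Tex12 and Zfp541 held the E2F6 core and Tex12 the E-box. Sycp3, Slc25a31 and Tex12 had both motifs. A motif match is a run of letters, and binding was not measured.

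Other motifs also differed in frequency, given here for the promoters without a peak, for those with a peak in both replicates and for all autosomal protein-coding promoters. The GC box GGGCGG, which SP1 binds, was found in 63.9%, 76.9% and 43.7%. The ETS core CCGGAAG was found in 5.56%, 18.6% and 11.0%, and the NRF1 core GCATGCGC in 2.78%, 6.37% and 3.45%. YY1's AAGATGGCG was in 0 of 108, in 3.15% and in 1.70%, and the cyclic AMP response element TGACGTCA in 0.926%, 3.93% and 2.43%. Each of these 5 motifs was less frequent in the promoters without a peak than in those with one, while the TATA box TATAAA was more frequent, at 10.2%, 4.77% and 12.7%. The CCAAT box, which NFY binds, was about as frequent in each, at 37.0%, 36.7% and 38.6%. It was unevenly spread, with 14 of 22 developmental regulators without a peak (63.6%) holding it. The listed transcription factor genes with a peak also held it more often than other promoters, in 49.3% of 67 cases. Partial sites of REST, a repressor of neuronal genes, were rare in all sets in this window, with TTCAGCACC in 0 of 108, 0.343% and 0.394% and GGACAGCGC in 0.926%, 0.838% and 0.524%. Over the whole 1001 bases most shares were higher. The 5 motifs remained less frequent in the promoters without a peak than in those with one, such as the ETS core with 15.7% against 31.1%, and the TATA box came to 16.7% against 15%. The E2F6 core turned from 13.9% against 10.8% to 20.4% against 27.8%, while the germ cell promoters without a peak still held it in 58.3%. TTCAGCACC was in 4.63% of the promoters without a peak, 5 in all of which 4 were histone genes, against 1.66%, and GGACAGCGC in 2.78% against 3.01%. The E2F core TTTCCCGC contains the E2F6 core, so its matches count under both.

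**Figure D5:**
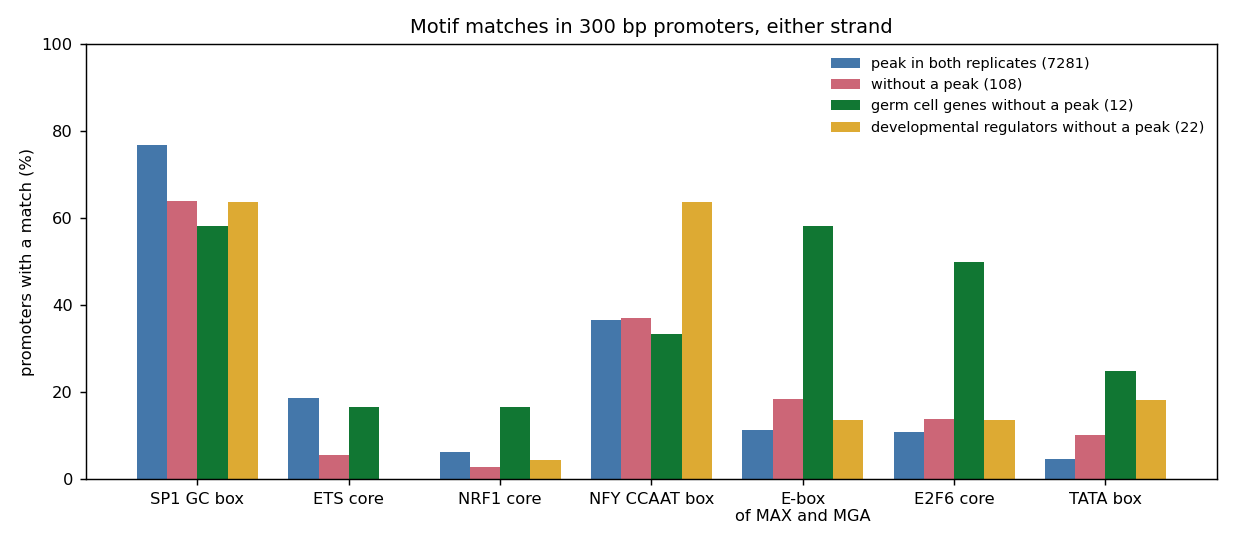
Share of promoters with at least 1 match on either strand between 250 bases before and 49 after the TSS, for 7 motifs, in the 7281 CpG-rich promoters with a peak in both replicates, the 108 without a peak, and the 12 germ cell genes and 22 developmental regulators among them. The E-box and E2F6 core bars of the germ cell genes (58.3% and 50%) and the CCAAT bar of the developmental regulators (63.6%) stand out.

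Genes known from nerve cells formed a further group. Of voltage-gated and two-pore channels 4 of 37 had no peak (10.8%). Hcn2, a pacemaker channel, had a peak 1447 bp away in both replicates, with signals of 2.60 and 1.80. Kcnk9, a potassium leak channel, had 3121 and 3141 bp. Kcnj6, a G protein-gated potassium channel, had its nearest peak 1432 bp away in replicate 1 and 24518 bp away in replicate 2, both weak, with signals of 0.411 and 0.448. The 31 channel genes with a peak in both replicates had medians of 1.27 and 1.13, led by Cacng2 with 12.7 and 8.16. The stricter lists left 7 channel genes without a peak and the 2500 bp window 1. Receptors for neurotransmitters lacked a peak in 2 of 21 cases (9.52%), the NMDA receptor subunit Grin2c (3358 and 3178 bp) and the dopamine receptor Drd5 (10147 and 10168 bp), and the stricter lists gave 5 of 21. On the list of neuropeptides, hormones and their receptors, 1 of 8 CpG-rich genes had none (12.5%), the orphan receptor Gpr12 (17082 and 59422 bp). That count became 2 of 8 by replicate 2 alone and 4 of 8 (50%) with the stricter lists.

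Synaptic adhesion and vesicle genes lacked a peak in 3 of 25 cases (12.0%). These were Slc18a3, which loads acetylcholine into vesicles (2851 and 2871 bp), Slc32a1, which loads GABA and glycine (2874 and 1842 bp), and Elavl3, an RNA-binding protein of neurons (1170 and 1220 bp). By replicate 2 alone 6 of 25 (24.0%) had none, and with a window of 2500 bp 1 of 25 (4.0%). The 18 with a peak in both replicates had medians of 1.53 and 1.14. Further members known from nerve cells were Gjd2, the connexin of electrical synapses, Gsg1l and Frrs1l, which act on AMPA receptors, Dlgap2, a postsynaptic scaffold, Slit1, an axon guidance ligand, and Ugt8a, which makes the galactolipids of myelin. Of the promoters without a peak whose sequences are printed above, Ugt8a stood farthest from any peak, at 66445 bp in replicate 1 and 158706 bp in replicate 2. Ajap1 lay closest to one, with peaks 1006 and 1690 bp away. Cabp7, the most CpG-rich of the 108, had a peak of signal 2.69 in replicate 1 and 2.23 in replicate 2, 3603 bp away in both.

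Secreted signals were few. Of the Wnt, Fgf, Bmp and Gdf ligands 2 of 26 had no peak (7.69%), Wnt3a with its nearest peak at 2969 and 2985 bp and Gdf7 at 4687 and 4652 bp. Sfrp5, a secreted antagonist of Wnt signals, had 3952 and 5471 bp, and Fndc5, the precursor of irisin, 1899 bp in both. With the stricter lists 4 of 26 had none. The 23 ligands with a peak in both replicates had medians of 2.04 and 1.38. Gdf9, a growth factor of the oocyte, had the strongest of these peaks, with 13.7 and 10.2. Whether that peak lies at a neighbouring gene's start was not examined.

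A separate kind of promoter without a peak was copied sequence. For each promoter the share of its 31-base words that occur again anywhere in the assembly was counted. Where 90% or more were copied, 17 of 22 CpG-rich promoters had no peak (77.3%), and between 50% and 90% 3 of 44 had none (6.82%). Below 50% the share did not rise with copying. With no copied word it was 1.28%, or 68 of 5322, with some but under 10% it was 0.969% (17 of 1754). From 10% to 50% it was 0.917% (3 of 327). How reads that match several places were treated is not stated in the sources used here, and its part in these missing peaks was not tested. The 5 copied promoters with a peak in both replicates were Gm3448 and Tcte3, each with 0.646 and 0.815, Hist2h3c2 with 0.802 and 0.943, Trim7 with 3.02 and 2.24 and Tuft1 with 2.86 and 2.81. Without the promoters that had 10% or more copied words, 85 of 7076 (1.20%) had no peak.

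The 3 runs with most genes were of copied members. On chromosome 12 the consecutive CpG-rich genes Fam177a, Srp54b, 1700047I17Rik2 and Srp54c were all without a peak over 105700 bp, on chromosome 14 Slc25a37, Entpd4, Gm16867 and Entpd4b over 270313 bp, and on chromosome 13 Hist1h2bq, Hist1h2ao, Hist1h2ap and Hist1h2br over 23547 bp. The 1001 bases were identical, base for base, between Srp54b and Srp54c, between Entpd4 and Entpd4b, and between Slc25a37 and Gm16867. Slc25a37 is the iron importer of mitochondria, Srp54b and Srp54c encode a subunit of the signal recognition particle, and Entpd4 a nucleotidase of the Golgi. The members farthest from any peak were mostly of this kind: Gm3488 (253505 and 362139 bp), Entpd4b (111632 bp in both), 1700047I17Rik2 (103029 and 103009 bp), Srp54b (74544 and 74524 bp) and Gm21863 (71847 and 72053 bp). The other runs were 5 pairs. In the pairs Gm3417 with Gm3435 on chromosome 17 and Hist2h3c1 with BC107364 on chromosome 3, each promoter was copied sequence. Hist2h3c1 and BC107364 were not alike, with a GC content of 68.3% and 56.9%. Hoxc9 with Hoxc8 and Mpped1 with Sult4a1 on chromosome 15 and Prtn3 with Plppr3 on chromosome 10 were not copied sequence by the 50% limit. The pair of Mpped1 and Sult4a1 spanned 326288 bp, more than any other run.

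Replication-dependent histones, which are made in S phase, lacked a peak in 5 of 29 cases (17.2%). All 5 were near-exact copies, with 96.8% of words copied in Hist2h3c1 and 100% in the others. Their nearest peaks were close and at the same distance in both replicates, from 1085 to 1504 bp, so that with a window of 2500 bp 0 of 29 lacked one. The 24 histone promoters with a peak in both replicates had medians of 3.07 and 2.53, led by Hist1h4a with 12.2 and 8.93. Hist2h3c2, with as many copied words as Hist2h3c1, had the weak peak given above. The CCAAT box was present in 5 of 5 histone promoters without a peak and in 24 of 24 with one.

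Broader groups of genes were counted too. Of predicted gene models 12 of 244 had no peak (4.92%), among them the copied Gm3488, Gm16867 and Gm21863. Solute carriers, a broad family of transporters, lacked one in 5 of 127 cases (3.94%), and those were Slc18a3, Slc32a1, Slc44a5, Slc25a31 and the copied Slc25a37. By replicate 2 alone 8 of 127 (6.3%) lacked one, and with the stricter lists 9 (7.09%). Zinc finger genes named Zfp lacked one in 1 of 115 cases (0.87%), the germ cell gene Zfp541, and by replicate 2 alone or with the stricter lists in 2. Grouped by the letters of the symbol before the first digit or hyphen, the 10 groups with the largest shares, among groups of at least 8 CpG-rich genes, were Hist (17.2%), Pou (12.5%), Fkbp (11.1%), Wnt (10.0%), Gpr (8.33%), Gm (8.26%), Mapk, Sec and Sox (7.69% each) and BC (7.14%). Outside Hist and Gm, which had 5 and 9 promoters without a peak, each of these shares rested on 1 gene.

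Several lists, among them genes used by bladder cells or by all cells, had no promoter without a peak. With 1.45% of all CpG-rich promoters lacking one, lists of these sizes would hold few or none in any case, so the zeros are read no further. None of 5 CpG-rich urothelial genes, 4 smooth muscle genes, 4 genes of fibroblasts and stroma, 12 genes of the cell cycle and replication or 56 ribosomal protein genes, a list matched by symbol that also takes the kinase Rps6kb1, lacked a peak, and each had one in both replicates. Neither did 14 imprinted genes, 2 genes of heart and skeletal muscle or 2 clustered protocadherins, although Zdbf2, an imprinted gene, had a peak in replicate 1 alone, and the stricter lists left 2 imprinted genes without one. Median signals were 9.51 and 7.21 for the cell cycle, 9.05 and 7.77 for ribosomal proteins and 3.79 and 3.77 for urothelium. Klf5, a factor of epithelia, had 9.27 and 7.93. The medians were 4.51 and 4.43 for smooth muscle and 2.63 and 2.39 for stroma, below those of the cell cycle.

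The edge of the group was gradual. Besides the 108, 66 CpG-rich promoters had a peak in replicate 1 alone, with a median signal of 0.435, and 14 in replicate 2 alone, with a median of 0.480. Both medians were far below the 6.67 and 5.74 of promoters with a peak in both. By replicate 1 alone 122 promoters had no peak (1.63%), and by replicate 2 alone, with its shorter list, 174 (2.33%). Developmental regulators were found on this edge too: Pax3 (0.489), Pou4f2 (0.422), Barhl2 (0.422), Hmx3 (0.458) and Lbx1 (0.536) had a peak in replicate 1 alone. Just beyond the 1 kb limit stood Ajap1 at 1006 bp, Dlgap2 at 1013 bp and Mei1 at 1030 bp, and just inside it Btbd18 at 835 bp, Foxb1 at 800 bp and Foxe1 at 763 bp. At the CpG o/e limit Mei1 (0.65), Hoxc9 (0.651) and Sycp3 (0.652) were members, while Ly6h, Gm3020 and Foxn4, also without a peak, fell below at 0.648. At the GC limit Hoxc12 (55.3%), Sycp3 (55.6%) and Gm3417 (55.8%) were members, while Dusp26 and Helt (54.8% each) and Gm10837 (54.6%) were not.

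Some of the 19 members of other roles had no link to nerve, germ line or development that was used in the sorting. Nags makes the activator of the urea cycle, Prtn3 is a protease of neutrophils, Car4 a carbonic anhydrase of cell surfaces, and Sec1 a fucosyltransferase. Nags had its nearest peak at 4713 bp in both replicates, Prtn3 at 1978 bp in both, Car4 at 4567 bp in replicate 1 and 1807 bp in replicate 2, and Sec1 at 6419 and 6433 bp. Prtn3 and Plppr3, a phosphatase-like membrane protein of neurons, had start sites 158 bp apart and shared most of their window. Tmem132e showed the widest gap between replicates, with a peak of signal 0.625 at 1420 bp in replicate 1 and the nearest peak of replicate 2 at 129258 bp.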

How the data were processed

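DNase-seq was analysed in 2 bladder libraries of 1 group, numbered by the labels' biological replicate. Peak positions and peak signal values were used as the authors deposited them, with no further normalization, and from each library the longer of its 2 peak lists was taken. The authors' FDR track, a p-value or q-value, was used as deposited, and footprints served as positions only. Notes deposited alongside the files say that each comes from 1 library, unpooled, in mm10. No aligner, caller, version or sequencing depth was given in the sources used here. TSSs came from all GENCODE M21 transcripts, sequence from the RefSeq assembly GRCm38.p6, and RefSeq mRNA starts from its annotation. In both libraries the peaks of all 21 chromosomes lay within the assembly's lengths. A promoter's signal was that of its strongest peak within 1 kb of any TSS, whether or not another gene also starts there. Copied words were 31-base words found more than once in 66 sequences of the primary assembly, on either strand. Motifs were 18 consensus sequences.

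No test was run. Gene lists (23), motifs and members were chosen with earlier results of these data known. Named were the 10 members with most CpG dinucleotides, the 5 farthest from a peak, the 3 on each side of each threshold, the members with FDR bases or footprints, up to 6 members and the 2 strongest peaks per list, 10 symbol groups and the 5 longest runs. Some items that this rule names are not reported here. No member met the rule on FDR bases in both replicates. Alternatives were the stricter peak list, equal peak numbers, each replicate alone, other windows, thresholds, transcripts and motif windows, and promoters without copies. The computations used Python 3.11.15, numpy 2.4.6, pandas 2.3.3, numba 0.67.0 and matplotlib 3.10.9. The interval and sequence functions were tested on simulated data and gave the right answer in 2000 of 2000 windows and 500 of 500 sequences.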

Additional observations from a re-analysis of the deposited data

How the results depend on the processing

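The 108 promoters (1.45%) became 226 (3.03%) with the stricter peak lists. They ranged from 122 to 174 (1.63% to 2.33%) with a single replicate, and leaving out replicate 1 gave the larger number. A window of 2500 bp around the TSSs left 72 (0.964%). A CpG o/e of 0.6 with a GC content of 50% gave 185, and 0.75 with 60% gave 41. Measuring sequence over 250 bp on either side gave 170, of which 96 were among the 108, and over 1000 bp gave 45, of which 40 were. Split by annotation, a choice made after seeing the data, genes with 1 TSS gave 47 (5.37%) and genes with more gave 61 (0.925%). Equal numbers of peaks, a window of 500 bp, peak centres, the most upstream TSS alone, FDR stretches, basic transcripts and promoters without copies kept the number within 1.5 times. The count over the 17 lists named by symbol, 35, became 71 with the stricter peak lists and ranged from 39 to 54 with a single replicate. No paired analysis was possible because 1 group holds both libraries. The labels state no depth, so its part in the absence of a peak was not tested. Of 18 motif shares, 13 moved over 1.5 times when searched over 500 bp on either side. Whether reads of the CAST/EiJ allele were placed as well as those of C57BL/6J was not tested.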
